A study of Homo sapiens with 16 samples.

Results

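The subject is 1 culture of 786-O cells, a clear cell renal cell carcinoma line, that had been infected with lentivirus carrying Cas9 and guide 4 against KDM5C (sgKDM5C 4). It was set against the 4 other 786-O cultures of the series, which carried a control guide (sgCtrl), a second guide against KDM5C (sgKDM5C 5) or 1 of the 2 guides against the Y-linked paralogue KDM5D (sgKDM5D 2 and sgKDM5D 4). All 5 carried a Cas9 lentivirus and each was a single RNA-seq sample of an infected population rather than of a selected clone, so no condition had a replicate of its own. The other 11 of the 16 samples were CAKI-2 cells with the same 5 guides, and A498 and 769-P cells with sgCtrl, sgKDM5C 4 and sgKDM5C 5. The deposited table lists 57773 genes, and 12888 of them had at least 60 counts over the 16 samples and a mean of at least 1 CPM (counts per M, where M is 10 to the power 6) over the 5 786-O samples. A gene was taken as a member when sgKDM5C 4 lay at least 2-fold above the highest, or 2-fold below the lowest, of the 4 other 786-O samples. By this rule 127 genes were higher in sgKDM5C 4, which is 0.985% of the genes measured, and 49 were lower, which is 0.38%. The culture and its genes were chosen by their measured levels in these same 5 samples, so the differences between sgKDM5C 4 and the 4 others are given as a description and carry no test.

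KDM5C is an X-linked histone demethylase that removes methyl groups from lysine 4 of histone H3, a mark found at active promoters and enhancers, and its loss of function recurs in clear cell renal cell carcinoma. The line 786-O lacks functional VHL, so that the hypoxia-inducible factor HIF2 is active in it at normal oxygen. Within 1 sample, the effect of a guide and anything else particular to that culture cannot be told apart.

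These are bulk samples, in which fewer cells of a type and less RNA per cell cannot be told apart. Sequencing depth was even, with 27.4M to 30.9M counts per 786-O sample and normalisation factors of 0.943 to 0.999. The 10 renal carcinoma line markers were all present in sgKDM5C 4, with a summed level of 5160 CPM against 4520 to 4840 CPM in the others. Of the markers of other cell types, all 5 for blood, 6 of 8 for leukocytes and 3 of 7 for endothelium in the table were at 0 counts in sgKDM5C 4, PTPRC and the haemoglobin genes among them, and no leukocyte or endothelial marker exceeded 8 counts. Of 8 fibroblast markers 4 were at 0, including PDGFRA and COL3A1, while COL1A1 had 309 counts against 174 to 213 in the others, and the fibroblast sum was 11.2 CPM against 6.96 to 7.94 CPM in the others, a difference whose part in the results was not tested. Genes that marked one of the other 3 lines were near absent, with 4 counts over 15 CAKI-2 genes, 0 over 3 A498 genes and 1 over 2 769-P genes. Gene GC content moved with the samples. Across genes, the log2 deviation of sgKDM5C 4 from the mean of the 5 786-O samples had a Spearman correlation of -0.216 with GC content, sgKDM5D 2 had -0.22, and the other 3 samples had 0.071 to 0.285. These correlations are across genes of the same library, which are not independent replicates.

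Each of the other 786-O samples also had genes beyond the range when it was set against the remaining 4. The counts of genes 2-fold higher and 2-fold lower were 4 and 6 in sgCtrl, 4 and 42 in sgKDM5C 5, 39 and 24 in sgKDM5D 2, and 3 and 4 in sgKDM5D 4. With 176 genes in both directions, sgKDM5C 4 had the most in this line, and its excess was mainly on the higher side. In CAKI-2, where 14367 genes were measured, the same guide gave 17 higher and 8 lower, and no CAKI-2 sample had more. Without any distance, 4059 genes (31.5%) lay above and 3880 genes (30.1%) below the range of the 4 others in sgKDM5C 4, 61.6% in all, against 24.7% to 50.4% for each of the 4 others treated alike. The same guide also had the largest share outside in CAKI-2, with 55.3% against 29.1% to 43.1%. The median absolute log2 difference between sgKDM5C 4 and each other sample was 0.195 to 0.266, while pairs among the other 4 gave 0.108 to 0.186. The largest of the 10 pairwise values was that between the cultures that carried the 2 KDM5C guides, which differed 2-fold in 709 genes.

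**Figure D1:**
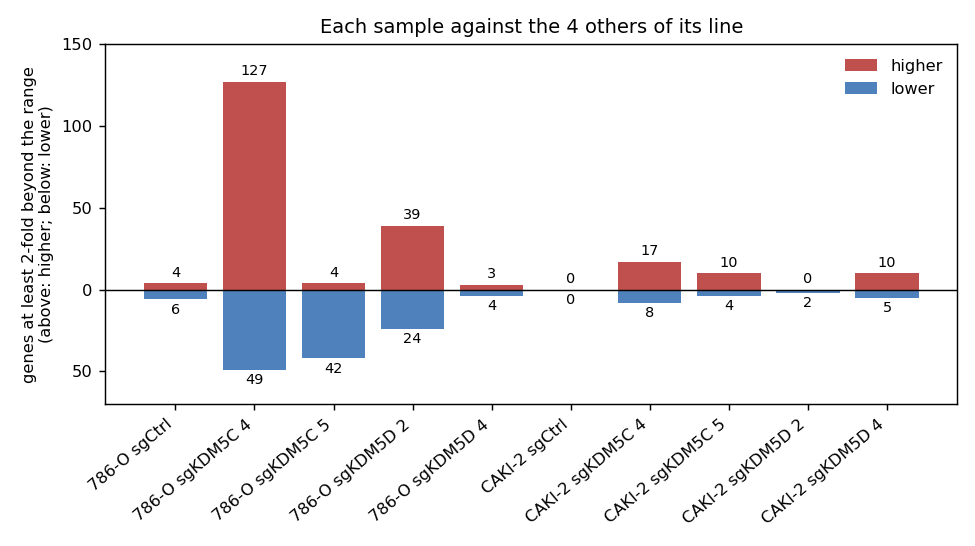
Number of genes (y axis) at least 2-fold beyond the range of the 4 other samples of the same line for each 786-O and CAKI-2 sample (x axis), with higher genes as bars above the zero line and lower genes as bars below it. In 786-O the sgKDM5C 4 culture had 127 genes higher and 49 lower, while in CAKI-2 the same guide gave 17 and 8.

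The members were mostly genes of low level in this line. The median over members of the mean level in the 4 other samples was 2.6 CPM for the higher members and 4.76 CPM for the lower ones, against 26.2 CPM for all genes measured. Their log2 spread over those 4 samples was also larger, with a median SD of 0.35 for the higher and 0.256 for the lower members against 0.132 for all genes. Of the 127 higher members 22 averaged under 1 CPM in the 4 other samples, and of the 49 lower members 24 were under 1 CPM in sgKDM5C 4. The median distance beyond the range was 2.47-fold for the higher and 2.61-fold for the lower members, and 10 and 8 members exceeded 4-fold. Protein-coding genes made up 114 of the higher and 42 of the lower members. Just past the limit of 1 on the log2 scale were AKR1B10 (1.01) and TNNT1 (1.02) on the higher side and SCG5 (-1.01) and MT2A (-1.02) on the lower side. Just short of it were FILIP1L (0.99) and FAM149A (0.98), and THBS1 (-0.99) and CCN2 (-0.99).

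The targeted gene was low in the culture, as its label has it. KDM5C was at 43.6 CPM in sgKDM5C 4, at 166 CPM in sgCtrl, at 78.8 CPM in sgKDM5C 5, and at 152 and 169 CPM in sgKDM5D 2 and sgKDM5D 4. The cultures with guides 4 and 5 thus held 26.2% and 47.4% of the control level of KDM5C transcript. KDM5C did not qualify as a member, because sgKDM5C 5 was also low and set the range. Its distance was -0.85 on the log2 scale and reached -1.80 when sgKDM5C 5 was left out. KDM5D, which no guide in this culture addressed, was at 32.5 CPM in sgKDM5C 4 against 49.2, 42.2, 39 and 37.5 CPM in sgCtrl, sgKDM5C 5, sgKDM5D 2 and sgKDM5D 4, lowest in sgKDM5C 4 and not lowest in either sgKDM5D culture. RNA level does not measure whether a guide disrupted its protein. The autosomal family members KDM5A and KDM5B had 66.5 and 36.1 CPM in sgKDM5C 4, with KDM5A at 56.4 to 61 CPM and KDM5B at 28.4 to 43.2 CPM in the others.

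From here on, levels of the 4 other samples are listed in the order sgCtrl, sgKDM5C 5, sgKDM5D 2, sgKDM5D 4, and a fold is the distance of sgKDM5C 4 from the nearest of them, computed on log2 CPM with a prior count of 2. Levels are CPM of whole genes and are compared between samples only, not between genes. Several named members overlap other genes, and the use of strand in counting is not given. Among these, KMO overlaps OPN3, DGKA overlaps PYM1, and HAS3 overlaps CHTF8 and DERPC, all on the opposite strand. NRG1 overlaps a gene on its own strand. Of the 176 members, 100 were placed by function in 13 groups after their values were known. Of the rest, 20 did not code for protein and 56 were not grouped. Genes named outside the 15 farthest in each direction and the gene lists were likewise picked for their function after their values were seen.

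The member farthest above the others was MDK, which encodes midkine, a secreted heparin-binding growth factor. It had 25.9 CPM in sgKDM5C 4 against 2.26, 0.97, 3.45 and 2.06 CPM in the 4 others, a distance of 7.38-fold (log2 distance 2.88). The 4 other samples themselves varied, from under 1 to over 3 CPM, and none came near the level of sgKDM5C 4. MDK (chr11:46402306-46405387, plus strand, GRCh37) overlaps CHRM4 on the opposite strand. IGFBP4, a secreted protein that binds insulin-like growth factors, stood at 35.4 CPM in sgKDM5C 4 against 6.39, 1.19, 9.34 and 3.79 CPM (3.77-fold). Its levels in the 4 others were widely scattered, so that the distance rests on sgKDM5D 2, the highest of them. ADM2, a peptide hormone of the adrenomedullin family, was the third higher member among 8 secreted growth factors and binding proteins. The other 5 of this group were lower and are described further on.

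Prostaglandin synthesis supplied 3 members, all higher, where 127 of all 176 members were higher. PTGES, which makes prostaglandin E2 from its precursor, had 20.1 CPM in sgKDM5C 4 against 2.29, 3.3, 2.5 and 4.23 CPM (4.68-fold). PTGS1, the constitutive cyclooxygenase that makes this precursor, had 10.4 CPM in sgKDM5C 4 against 2.78, 4.74, 3.06 and 4.3 CPM. PTGDS, which makes prostaglandin D2, had 6.46 CPM in sgKDM5C 4 against 0.94, 1.44, 0.657 and 1.65 CPM. In each of the 3 the culture stood clear of all 4 others. HPGD, which degrades prostaglandins, lay within the range of the others.

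Enzymes of amino acid and small-molecule metabolism were a group of 14, with 13 members higher and 1 lower, where 127 of all 176 members were higher. ASS1, the argininosuccinate synthetase that arginine synthesis needs, had 24.2 CPM in sgKDM5C 4 against 4.85, 4.1, 4.9 and 6.1 CPM (3.94-fold). PRODH, the mitochondrial proline oxidase, had 24.3 CPM in sgKDM5C 4 against 5.15, 4.24, 7.07 and 8.38 CPM. HOGA1, which acts in hydroxyproline breakdown, had 21.4 CPM in sgKDM5C 4 against 7.48, 7.51, 7.53 and 6.66 CPM. The 4 other samples were close together in HOGA1, with an SD of 0.086 on the log2 scale against a distance of 2.82-fold, and sgKDM5C 4 stood alone. PRODH and HOGA1 overlap neighbouring genes and PRODH has a near copy on the same chromosome, so their counts are uncertain. In the kynurenine pathway of tryptophan breakdown, KMO, the kynurenine 3-monooxygenase, had 29.6 CPM in sgKDM5C 4 against 7.79, 6.86, 9.11 and 8.72 CPM (3.24-fold) and ACMSD, which diverts a later intermediate, had 2.63 CPM in sgKDM5C 4 against 0.639, 1.15, 1.02 and 0.772 CPM. KYNU, TDO2 and QPRT of the same pathway were not beyond the others. DHRS3, which reduces retinal, had 33.8 CPM in sgKDM5C 4 against 6.09, 2.87, 9.93 and 8.46 CPM (3.38-fold). CA2, a carbonic anhydrase, was a member of high level, at 149 CPM in sgKDM5C 4 against 59.4, 49.1, 67.4 and 52.3 CPM. Further higher members were MAOB, AKR1B10, CYP3A5, CYP2S1, ACSS1 and IMPA2. The 1 lower member of the group was AOX1, the aldehyde oxidase, which was also the farthest of all lower members of at least 5 CPM. AOX1 had 1.54 CPM in sgKDM5C 4 against 8.91, 8.94, 9.53 and 8.09 CPM (5.08-fold lower), and its levels in the 4 others were nearly level.

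Lipid enzymes held 4 higher and 1 lower member, and transporters and channels 10 higher and 2 lower, beside 127 higher and 49 lower over all members. SMPDL3A, a sphingomyelin phosphodiesterase-like secreted enzyme, had 79 CPM in sgKDM5C 4 against 19.1, 21.3, 23.7 and 25.3 CPM (3.12-fold). DGKA, a diacylglycerol kinase, had 10.8 CPM in sgKDM5C 4 against 1.5, 1.72, 0.888 and 1.77 CPM (5.94-fold). It was second of all higher members by distance (log2 distance 2.57), but its mean lay under 5 CPM. The monocarboxylate transporter SLC16A4 had 23.9 CPM in sgKDM5C 4 against 8.05, 7.62, 4.6 and 8.72 CPM. SLC17A3, a renal anion transporter, had 6.73 CPM in sgKDM5C 4 against 1.77, 1.83, 2.66 and 1.77 CPM. Over all 178 measured solute carriers 62 lay above, 60 within and 56 below the range, with 6 members higher and 1 lower and a median difference of 0.05 on the log2 scale from the mean of the 4 others, near the 0.01 of all genes. The lower members were SLC1A3, a glutamate transporter, and the cation channel TRPM2, which had 6 counts against 121, 149, 168 and 76.

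Signalling genes followed. RAP1GAP, which switches off the small GTPase RAP1, had 30.3 CPM in sgKDM5C 4 against 4.55, 3.77, 3.62 and 5.44 CPM (5.51-fold). DIRAS2, a Ras-like GTPase, had 26.8 CPM in sgKDM5C 4 against 4.48, 3.7, 6.71 and 5.22 CPM (3.96-fold). VAV3, a guanine nucleotide exchange factor, had 59.9 CPM in sgKDM5C 4 against 11.4, 12.2, 17.1 and 13.3 CPM (3.49-fold). In all 3 the 4 others lay well under sgKDM5C 4. Their log2 SD was 0.267 in RAP1GAP, 0.358 in DIRAS2 and 0.256 in VAV3, against a median of 0.132 over all genes. JAK3 and RAB26 were also higher, while the lower member DUSP10, a phosphatase of stress-activated kinases, had 9.53 CPM in sgKDM5C 4 against 21.8, 22.9, 28.7 and 21.5 CPM. Among G protein-coupled receptors, the adhesion receptor ADGRB2 had 16.2 CPM in sgKDM5C 4 against 4.33, 4.2, 3.68 and 3.35 CPM (3.7-fold), GPR153 and GPR173 were higher, and ADGRG2 and CMKLR2 were lower.

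Among matrix and extracellular genes 12 members were higher and 6 lower, beside 127 higher and 49 lower over all members. OLFML2A, an olfactomedin-like matrix protein, had 51 CPM in sgKDM5C 4 against 12.3, 10.3, 16.1 and 13.5 CPM (3.15-fold). MATN2, a matrilin, had 138 CPM in sgKDM5C 4 against 19.4, 48.9, 17.7 and 28.9 CPM. Its sgKDM5C 5 level was above those of sgCtrl and both sgKDM5D cultures but well under that of sgKDM5C 4. MATN2 overlaps the ribosomal protein gene RPL30 on the opposite strand. The higher members also held the heparan sulphatases SULF1 and SULF2, the proprotein convertases PCSK5 and PCSK6, and SERPINF2, F2 and F8 of the clotting and fibrinolytic systems. On the lower side CCDC80, a secreted matrix protein, had 20.2 CPM in sgKDM5C 4 against 68.3, 66.7, 123 and 71.1 CPM (3.3-fold lower). HAS3, a hyaluronan synthase, had 32.1 CPM in sgKDM5C 4 against 79.2, 81, 74.4 and 77.1 CPM (2.32-fold lower). In CCDC80 sgKDM5D 2 stood high, while in HAS3 the 4 others were almost equal. The collagens COL5A1, with 0 counts against 28, 34, 3 and 127, and COL12A1, with 10 counts against 46, 30, 79 and 28, were lower members of low level. Of 19 measured collagens 4 lay above, 9 within and 6 below the range, and their median difference of -0.14 changed sign to 0.0085 when the trend with GC content was removed.

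Epithelial and cytoskeletal genes lay in both directions. The kidney cadherin CDH16 had 10 CPM in sgKDM5C 4 against 4.25, 2.44, 3.91 and 3.79 CPM, and ELF3, an epithelial transcription factor, had 54.2 CPM in sgKDM5C 4 against 18.3, 17.3, 19.6 and 13.6 CPM. JUP, NRCAM and CELSR3 were also higher. CLDN1, a tight junction claudin, had 16.5 CPM in sgKDM5C 4 against 36.6, 47, 37.3 and 43 CPM (2.21-fold lower), and PODXL2, a sialomucin, had 5.81 CPM in sgKDM5C 4 against 17, 15.6, 19.6 and 15.7 CPM (2.67-fold lower). Over the 21 measured genes of the epithelial list, 11 lay above, 5 within and 5 below, with a median difference of 0.21. Of the cytoskeletal, muscle and motor members 10 were higher and 3 lower, where 127 of all 176 members were higher. The focal adhesion gene TNS1 had 221 CPM in sgKDM5C 4 against 61.4, 82.7, 44.2 and 82.5 CPM. AIF1L, an actin-binding protein of low and uneven level in the others, had 35.6 CPM in sgKDM5C 4 against 2.03, 4.85, 10 and 1.1 CPM (3.53-fold). MYH13, a skeletal muscle myosin that lies beside the member MYH4 on chromosome 17, had 61.6 CPM in sgKDM5C 4 against 10.6, 23, 9.5 and 13.9 CPM. On the lower side ALPK3, a muscle alpha-kinase, had 15.3 CPM in sgKDM5C 4 against 53.4, 69.6, 57 and 55.5 CPM (3.48-fold lower), and the stress-responsive ankyrin protein ANKRD1 had 2.56 CPM in sgKDM5C 4 against 15, 14.6, 11.6 and 13.7 CPM (4.43-fold lower).

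**Figure D2:**
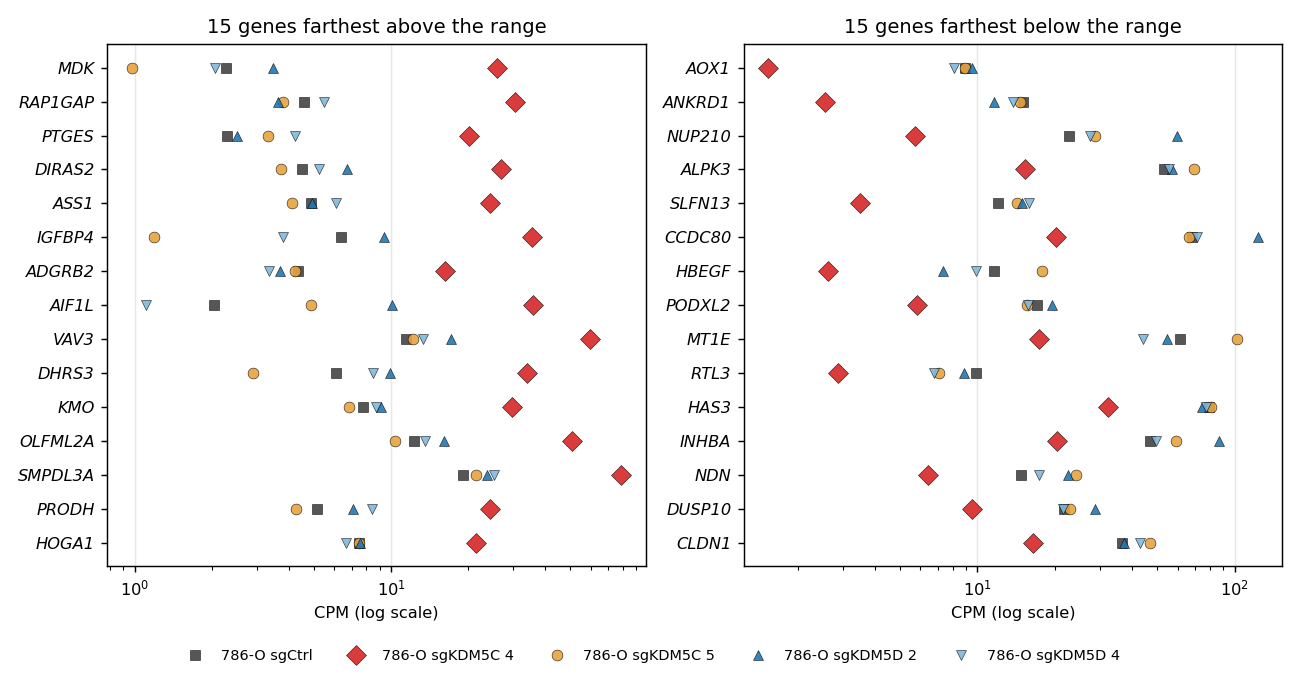
Levels in CPM, on a log axis, of the 15 protein-coding genes farthest above and the 15 farthest below the 4 other 786-O samples among members with a mean of at least 5 CPM, with 1 point per sample. The sgKDM5C 4 point of MDK stands at 25.9 CPM with no other sample above 3.45 CPM, and that of AOX1 at 1.54 CPM with no other sample under 8.09 CPM.

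The growth factors among the lower members were mostly ligands and binding proteins of the EGF and TGF-beta families. HBEGF, a ligand of the EGF receptor, had 2.63 CPM in sgKDM5C 4 against 11.6, 17.8, 7.36 and 9.86 CPM (2.75-fold lower). NRG1, a ligand of ERBB3 and ERBB4, had 20.3 CPM in sgKDM5C 4 against 49.9, 47.5, 46.1 and 43.7 CPM. INHBA, the subunit that forms activin A, had 20.3 CPM in sgKDM5C 4 against 47, 59.3, 86.7 and 49.4 CPM (2.31-fold lower). In all 3 every other sample lay above sgKDM5C 4, close together in NRG1 and widely scattered in HBEGF and INHBA. BMPER and CHRDL1, which are extracellular regulators of bone morphogenetic proteins, had 3 and 11 counts in sgKDM5C 4, against 50, 49, 88 and 40 counts of BMPER and 203, 37, 290 and 129 counts of CHRDL1. Of the 7 measured EGF receptor family genes and ligands 2 lay above, 2 within and 3 below, and of 13 in the BMP and GDF list 4 lay above, 2 within and 7 below. Other lower genes of high distance were NUP210 and SLFN13. NUP210, a nuclear pore protein, had 5.71 CPM in sgKDM5C 4 against 22.8, 28.5, 59.5 and 27.5 CPM (3.95-fold lower). SLFN13, a tRNA- and rRNA-cleaving Schlafen protein, had 3.49 CPM in sgKDM5C 4 against 12, 14.3, 14.9 and 15.9 CPM (3.4-fold lower). NDN and RTL3 lay nearer the limit, 2.29-fold and 2.32-fold lower, under the median of 2.61-fold for the lower members.

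Metallothioneins, small cysteine-rich proteins that bind zinc and copper and are induced by metals, were low as a set. MT1E had 17.3 CPM in sgKDM5C 4 against 61.3, 102, 54.7 and 44.2 CPM (2.55-fold lower) and MT2A had 90 CPM in sgKDM5C 4 against 234, 268, 188 and 182 CPM. The third measured gene, MT1X, also lay below the range, so that 3 of 3 did, with a median difference of -1.26. The 2 members are neighbours on chromosome 16 and near copies of each other, so reads could have been split between them. The promoter of MT2A is shown because all 3 measured genes were low and the family is known for metal response elements. The 250 bases upstream of its start come from RefSeq (GRCh38.p14, chr16:56608334-56608583, plus strand). The capitals mark matches to TGCGCNC, 1 form of the core of these elements, of which there were 2. The other form, TGCACNC, was not searched and is not marked.
MT2A: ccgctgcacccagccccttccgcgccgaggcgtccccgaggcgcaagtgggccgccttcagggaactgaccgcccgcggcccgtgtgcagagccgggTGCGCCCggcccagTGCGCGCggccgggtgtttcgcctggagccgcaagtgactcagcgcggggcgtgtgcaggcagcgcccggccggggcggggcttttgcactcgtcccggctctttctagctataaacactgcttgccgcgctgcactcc
TGCGCNC was searched on both strands and also occurs in 23% of the 27305 genes whose 300-base window around the start was at hand. A match is therefore a description of the sequence and no evidence of binding.

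Interferon-stimulated genes, which cells switch on when interferon binds its receptor, lay high in sgKDM5C 4. Of 37 measured, 21 lay above the range of the 4 others, 16 within and none below, where all genes had 31.5% above and 30.1% below, and the median difference was 0.45 on the log2 scale against 0.01 over all genes measured. The 4 of them farthest past the 2-fold limit were OAS2, IFI6, IFI44L and OAS1. OAS2, which activates RNase L on sensing double-stranded RNA, had 7.72 CPM in sgKDM5C 4 against 2.71, 1.69, 2.27 and 1.99 CPM. IFI6, a mitochondrial and endoplasmic reticulum protein, had 76.3 CPM in sgKDM5C 4 against 27.4, 16, 20.3 and 25 CPM (2.78-fold), and IFI44L had 14.7 CPM in sgKDM5C 4 against 4.17, 2.44, 2.89 and 5.37 CPM. OAS1, a neighbour of OAS2 on chromosome 12, had 14 CPM in sgKDM5C 4 against 5.38, 3.7, 4.24 and 6.21 CPM. In each of the 4 genes sgKDM5C 5 was the lowest of the 5 samples and sgKDM5C 4 the highest. MX2 was the fifth member of the list. In 786-O sgKDM5C 5, which is 1 of the 4 samples that set the range, the list had a median of -0.44 against the mean of the 3 remaining samples.

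The promoters of IFI6 and IFI44L are shown because both were members and hold the interferon-stimulated response element, searched as 2 copies of GAAA with any 2 bases between them. The 250 bases before each start are from RefSeq (GRCh38.p14), at chr1:27672193-27672442 on the minus strand and chr1:78620198-78620447 on the plus strand. The capitals mark the matches, 3 in IFI6 and 2 in IFI44L.
IFI6: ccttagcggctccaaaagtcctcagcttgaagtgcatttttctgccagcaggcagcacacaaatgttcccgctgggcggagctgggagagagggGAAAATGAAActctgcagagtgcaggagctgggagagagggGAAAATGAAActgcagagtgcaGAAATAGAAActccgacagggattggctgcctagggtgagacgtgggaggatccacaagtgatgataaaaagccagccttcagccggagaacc
IFI44L: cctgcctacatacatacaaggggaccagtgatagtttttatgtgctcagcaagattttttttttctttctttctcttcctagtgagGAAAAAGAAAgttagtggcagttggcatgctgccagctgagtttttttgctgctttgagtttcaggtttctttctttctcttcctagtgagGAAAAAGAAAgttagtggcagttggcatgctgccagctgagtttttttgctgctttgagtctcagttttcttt
The element, searched on both strands, was present in 20 of the 28 listed genes with a promoter entry (71.4%) and in 4.38% of all genes with an entry. Among listed genes above the range it was found in 10 of 15 (66.7%), and among those within it in 10 of 13 (76.9%), so the share was no higher above the range than within it. Only 2 of the 89 higher members with an entry held it.

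Genes of antigen presentation lay on the same side. Of 15 measured in the MHC class I list 10 lay above, 4 within and 1 below, with a median difference of 0.38 and no member. HLA-B had 1123 CPM in sgKDM5C 4 against 705, 660, 579 and 714 CPM, and B2M, its light chain, had 1023 CPM in sgKDM5C 4 against 712, 654, 735 and 714 CPM. HLA genes are alike in sequence and their reads may be shared. CD74, the invariant chain of class II, was a member at 24.1 CPM in sgKDM5C 4 against 9.1, 10.7, 4.37 and 10.6 CPM.

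Further lists also lay high. Of 12 measured proximal tubule genes 10 lay above and 2 within, with a median difference of 0.54. Besides SLC17A3, the scaffold PDZK1 had 41.5 CPM in sgKDM5C 4 against 18.8, 18.5, 27.1 and 17.3 CPM and the brush border peptidase DPP4 had 122 CPM in sgKDM5C 4 against 62, 63.9, 75 and 72.2 CPM. Of 20 p53 targets 15 lay above, 3 within and 2 below, with a median of 0.34. The cell cycle inhibitor CDKN1A had 375 CPM in sgKDM5C 4 against 264, 225, 300 and 289 CPM, and TP53INP1 had 25.2 CPM in sgKDM5C 4 against 8.91, 6.25, 17.3 and 14.8 CPM. Of 22 HIF targets 15 lay above, 4 within and 3 below, with a median of 0.27, though none was a member. The nearest to the limit was NDRG1, at 3270 CPM in sgKDM5C 4 against 1107, 1517, 1461 and 1673 CPM, and EGLN3, the oxygen sensor that HIF itself induces, had 319 CPM in sgKDM5C 4 against 156, 157, 144 and 192 CPM. Of 20 glycolysis genes 12 lay within the range and the median was -0.01.

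**Figure D3:**
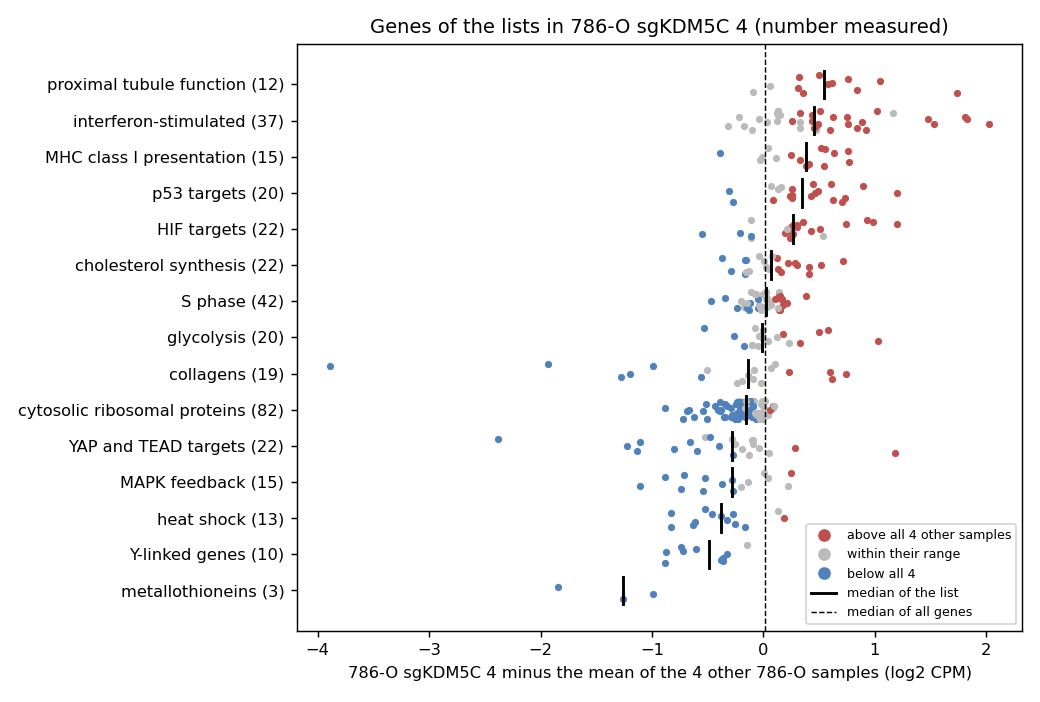
Log2 CPM of sgKDM5C 4 minus the mean of the 4 other 786-O samples (x axis) for each measured gene of 15 lists (1 point per gene), coloured by whether the gene lay above, within or below the range of the 4 others, with a bar at each list's median and a dashed line at the median of all genes. Interferon-stimulated genes were above in 21 of 37 and below in none, and heat shock genes were below in 11 of 13.

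The lists that lay low included heat shock proteins, ribosomal proteins and genes of growth signalling. Of 13 heat shock genes 11 lay below, 1 within and 1 above, with a median difference of -0.38. The chaperone HSPA1B had 28.6 CPM in sgKDM5C 4 against 46, 61.3, 53.7 and 45 CPM, and its cochaperone BAG3 had 69.6 CPM in sgKDM5C 4 against 117, 143, 112 and 126 CPM. HSPA1B is a near copy of a neighbouring gene. Of 82 cytosolic ribosomal protein genes 53 lay below, 27 within and 2 above, with a median of -0.16, a small shift carried by many genes. Their summed level was 51900 CPM against 55400 to 62000 CPM in the others. Of 15 feedback genes of the MAPK pathway 9 lay below, 5 within and 1 above, with a median of -0.29. FOSL1, an AP-1 subunit downstream of this pathway, had 111 CPM in sgKDM5C 4 against 215, 291, 219 and 236 CPM.

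Targets of YAP, a coactivator that the Hippo pathway holds in check, and of its DNA-binding partner TEAD lay mostly low. Of 22 measured 10 lay below, 10 within and 2 above, with a median of -0.28. ANKRD1 was the 1 member of this list. CCN2, a secreted matricellular protein, was just short of the limit, with 5.84 CPM in sgKDM5C 4 against 13.3, 14.5, 15.9 and 11.7 CPM. CCN1 had 95.8 CPM in sgKDM5C 4 against 206, 310, 172 and 168 CPM and the receptor kinase AXL had 279 CPM in sgKDM5C 4 against 502, 581, 460 and 420 CPM. The summed level of the list, 4820 CPM in sgKDM5C 4 against 3960 to 4830 CPM, was not low, so the sum and the median differ in direction. The promoters of ANKRD1 and CCN2 are shown because both are classical targets that hold the TEAD core GGAATG. They are the 250 bases before the start in RefSeq (GRCh38.p14), at chr10:90921088-90921337 and chr6:131951373-131951622, both on the minus strand, and the capitals mark the core, 2 times in ANKRD1 and 3 times in CCN2.
ANKRD1: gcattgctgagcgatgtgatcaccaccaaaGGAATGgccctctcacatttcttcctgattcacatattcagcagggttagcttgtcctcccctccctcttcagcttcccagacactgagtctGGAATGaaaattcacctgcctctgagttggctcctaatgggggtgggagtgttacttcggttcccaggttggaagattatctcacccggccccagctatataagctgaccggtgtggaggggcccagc
CCN2: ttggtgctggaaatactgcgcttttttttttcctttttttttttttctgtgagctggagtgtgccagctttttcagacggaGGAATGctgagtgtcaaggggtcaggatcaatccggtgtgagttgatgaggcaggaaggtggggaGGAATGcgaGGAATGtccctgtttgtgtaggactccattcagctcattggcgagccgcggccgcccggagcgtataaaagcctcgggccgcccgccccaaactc
The core, on either strand, was found in 9 of 15 listed genes with an entry (60%) and in 16.7% of all genes. It was held by 8 of 39 lower members with an entry (20.5%) and by 18 of 89 higher members (20.2%), a like share. Of the listed genes it was found in 6 of 9 above or below the range and in 3 of 6 within it.

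Genes of the cell cycle had medians near that of all genes. Of 42 S phase genes 12 lay above, 22 within and 8 below, with a median of 0.02, and of 54 G2/M genes 7 lay above, 27 within and 20 below, with a median of -0.04. The 13 mitochondrially encoded genes lay above in 4 and within in 7, with a share of counts of 3.37% in sgKDM5C 4 and 2.47% to 3.4% in the others.

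Higher members were most numerous on chromosome 1, with 27 of 127, where 1283 of the 12888 measured genes lie. Some members lay side by side. Within 1 megabase of another member of the same direction lay 30 of the 127 higher members and 2 of the 49 lower ones. The like share for all measured genes, or for other sets of these sizes, was not computed, so these counts are a description only. PTGES, ASS1 and AIF1L lie in 1 stretch of chromosome 9 (chr9:132500610-133998539, GRCh37), where 14 genes were measured. The other 11 there were not members, and the median difference of all 14 was -0.01. TLCD3B, DOC2A and PRRT2 lie together on chromosome 16 (chr16:29822703-30064299), where 8 of 13 measured genes lay above the range and none below.

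Whole chromosomes and stretches of them differed as well, by small amounts over many genes, and this was seen in other 786-O cultures too. The median of chromosome 22 was -0.195 in sgKDM5D 2 and that of chromosome 13 was -0.171 in sgKDM5D 4, while in sgKDM5C 5 a window of 10 megabases on chromosome 11 had a median of -0.475 and one on chromosome X of 0.375. The SD over the 265 windows was 0.119 in sgKDM5C 4, 0.101 in sgKDM5C 5 and 0.0924 in sgKDM5D 2, against 0.0585 in sgCtrl and 0.0661 in sgKDM5D 4. On chromosome 3, 375 of 712 measured genes (52.7%) lay below the range in sgKDM5C 4 and 89 (12.5%) above it. The median log2 difference of chromosome 3 genes from the mean of the 4 other samples, taken for each sample in turn, was -0.156 in sgKDM5C 4, -0.0134 in sgCtrl, -0.028 in sgKDM5C 5, 0.142 in sgKDM5D 2 and 0.0626 in sgKDM5D 4. All 18 windows of 10 megabases on chromosome 3 had a negative median in sgKDM5C 4, from -0.315 to -0.0587, and with the GC trend removed the median for the chromosome was -0.178. The opposite held for chromosome 7 from 60 to 160 megabases, where 50.9% of 436 genes lay above the range and the median was 0.156, with -0.129 to 0.0451 in the others. On chromosome 10 from 100 to 140 megabases 55.4% of 166 genes lay below, and the median was -0.206 against 0.0105 to 0.151. These stretches were chosen after their values were seen. Over whole chromosomes, the shifts of chromosomes 16, 17 and 19 were smaller once the GC trend was removed. Their medians of -0.131, -0.0941 and -0.0892 went to -0.0791, -0.0624 and -0.0212. Single windows there, also picked by their values, kept larger shifts. In the window from base 70000001 of chromosome 17, 102 of 128 genes lay below the range and 8 above. Its median of -0.401 went to -0.312. From base 1 of chromosome 19, 134 of 184 lay below and 21 above, with -0.436 going to -0.308. From base 80000001 of chromosome 16, -0.319 went to -0.262.

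Y-linked genes lay low too. Of all 15 measured genes on the chromosome 9 lay below the range and 3 above it, the pseudogenes CD24P4 and RNA5-8SP6 and the gene ENSG00000225840, with a median difference of -0.366. Of the 10 in the list of Y-linked genes 9 lay below the range and 1 within, with a median difference of -0.49, and their summed level was 356 CPM in sgKDM5C 4 against 564 to 609 CPM in the 4 others. RPS4Y1, a ribosomal protein gene, had 177 CPM in sgKDM5C 4 against 333, 315, 327 and 337 CPM, and DDX3Y, an RNA helicase gene, had 43.9 CPM in sgKDM5C 4 against 77.6, 78.3, 80 and 86 CPM. The 4 others were close together and sgKDM5C 4 stood well under them in both. The low KDM5D of this culture is 1 of these genes.

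**Figure D4:**
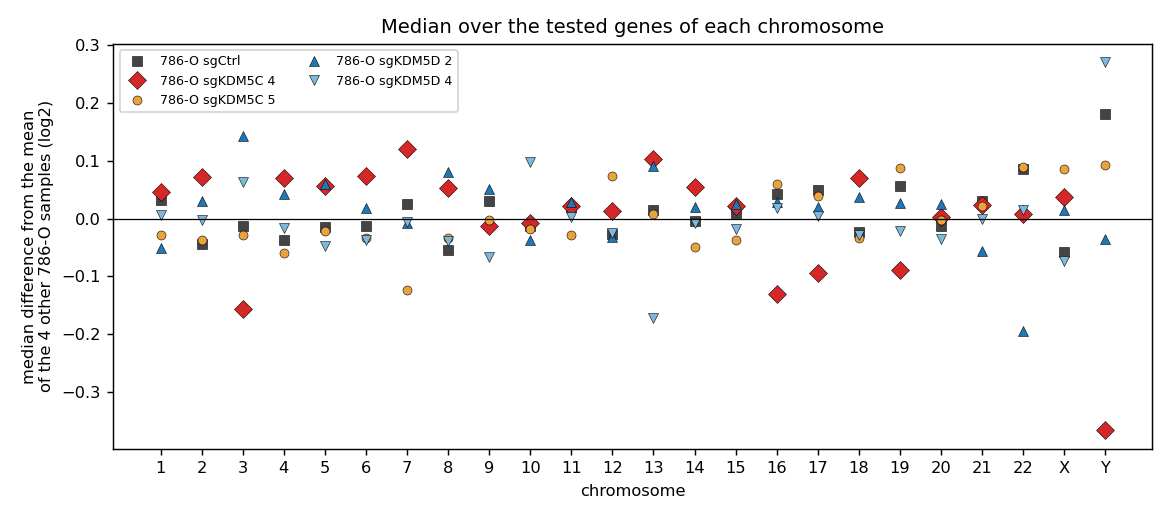
Median log2 difference of each 786-O sample from the mean of the 4 others (y axis) over the measured genes of each chromosome (x axis), with 1 point per sample. In sgKDM5C 4 chromosome 3 stood at -0.156 over 712 genes and chromosome Y at -0.366 over 15 genes.

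Whether guide 4 had the same effect elsewhere was tested in samples that played no part in the choice of genes. In CAKI-2, A498 and 769-P, guide 4 was compared with guide 5 and with sgCtrl over 20175 genes, with the cell line as a block, by the edgeR quasi-likelihood F-test, 3 samples per guide. Against guide 5 no gene was higher (0% of those tested) and 1 was lower (0.00496%), with 837 genes at an unadjusted p under 0.05. The 1 gene was CST1, a cystatin, lower by a log2 fold change of -2.72 with an SE of 0.308 (edgeR adjusted p = 0.0104). It was not among the genes measured in 786-O. Against sgCtrl 8 genes rose (0.0397%) and 4 fell (0.0198%), with 1820 at an unadjusted p under 0.05. KDM5C was the first of these, with a log2 fold change of -1.15, an SE of 0.128 and an edgeR adjusted p of 0.000975. The calls depended on single lines. Without CAKI-2 there were 0 calls against guide 5 and 25 against sgCtrl, and without A498 there were 3 and 1.

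Hardly any member was called in these lines. None of the 127 higher or 49 lower members was called between guides 4 and 5, and 57 of the 127 and 26 of the 49 had the direction they had in 786-O. Their median log2 fold changes were -0.03 and -0.04, against -0.01 over all genes. Of all genes tested, 47.7% had a positive and 52.2% a negative fold change. For guide 4 against sgCtrl 66 of the 127 and 21 of the 49 had the same direction, with medians of 0.01 and 0.05 against 0.01 over all genes. In that comparison 51.3% of all genes were positive and 48.7% negative. The single member called was LINC02274, a long non-coding RNA that was higher in 786-O sgKDM5C 4 and rose with guide 4 in the other lines by a log2 fold change of 1.25 with an SE of 0.199 (edgeR adjusted p = 0.0276). CCN2 went the other way. It was low in 786-O sgKDM5C 4 and rose with guide 4 elsewhere by 0.98 with an SE of 0.158 (edgeR adjusted p = 0.0276). CCN2 went from 534.7 to 764.8 CPM in CAKI-2, from 8.21 to 23.1 CPM in A498 and from 3.79 to 8.29 CPM in 769-P. With guide 5 it stood at 831.5, 19.9 and 6.5 CPM in these lines, so it lay above sgCtrl with both KDM5C guides. Between guides 4 and 5 its log2 fold change was 0.108 with an SE of 0.153 (edgeR adjusted p = 0.968). In simulated data with known changes the same test found 85.4% of 2-fold changes between guides 4 and 5. Between guide 4 and sgCtrl it found 81.7%. Of its calls in these data, 20 of 206 and 18 of 200 were false. Recovery was not tested separately for genes at the low levels of most members, or for effects that differ between lines.

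The same lists were read in the other lines. The median log2 fold change of guide 4 against sgCtrl was 0.04 for interferon-stimulated genes, -0.19 for MHC class I genes, 0.0054 for heat shock genes, 0.13 for YAP and TEAD targets, -0.08 for p53 targets, -0.08 for HIF targets and -0.06 for proximal tubule genes. No gene of these lists was called except CCN2. In CAKI-2 alone the 5 guides matched those of 786-O. There 111 higher members were measured. In sgKDM5C 4, 18 of them lay above, 49 within and 44 below the range of the 4 other CAKI-2 samples. Over all 14367 genes of CAKI-2, 25.9% lay above and 29.4% below in this sample. None of the 111 was 2-fold beyond the range, where 0.118% of all genes were 2-fold higher and 0.0557% lower. Of 28 lower members 10 lay below, 10 within and 8 above, 1 of them at least 2-fold above, opposite to its direction in 786-O.

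**Figure D5:**
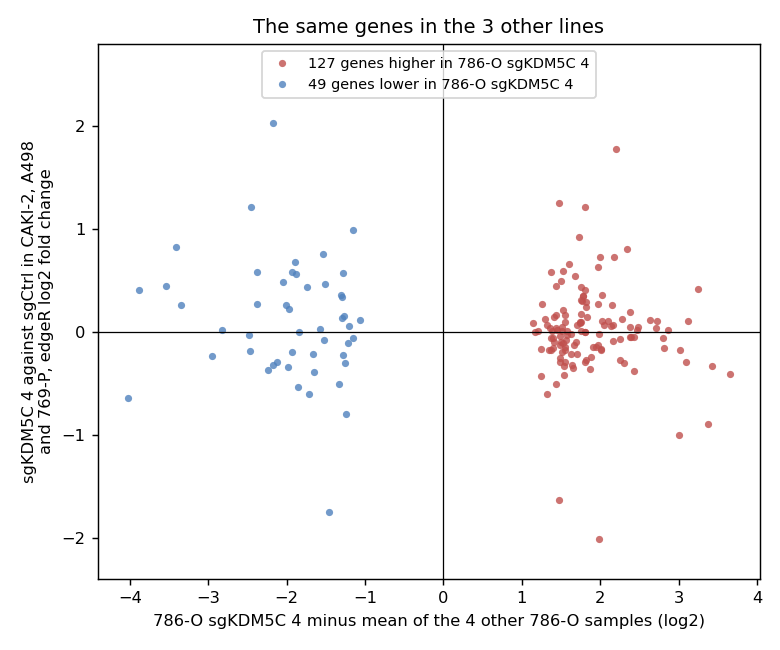
Fitted log2 fold change of guide 4 against sgCtrl in CAKI-2, A498 and 769-P (y axis) against the log2 difference of 786-O sgKDM5C 4 from the mean of the 4 other 786-O samples (x axis), with 1 point for each of the 127 higher and 49 lower members. The higher members had a median of 0.01 and the lower members of 0.05 on the y axis.

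The second KDM5C guide in 786-O was compared with the 3 remaining 786-O samples in a fit of the 15 samples that leaves sgKDM5C 4 out. The 4 samples of this comparison set the range that chose the members, so it is not independent of the choice, and no count of members is drawn from it. The edgeR test called 4 genes higher (0.0198%) and 3 lower (0.0149%), with 1420 at an unadjusted p under 0.05. KDM5C itself had a log2 fold change of -1.03 with an SE of 0.191 and missed the threshold (edgeR adjusted p = 0.069). The called gene of largest size was CPNE7, a copine, with 3.73 and an edgeR adjusted p of 0.00137, and it lay within the range in sgKDM5C 4. With 1 sample per guide these p-values borrow their spread from the groups of other lines and genotypes, and the 7 calls became 13, 23 and 17 without sgCtrl, sgKDM5D 2 and sgKDM5D 4. In simulated data this test found 60.2% of 2-fold changes, and 14 of its 164 calls were false. Members reached at least 1 CPM in the sgCtrl samples of the other lines less often than all measured genes. For CAKI-2 this was 111 of 127 higher members (87.4%) and 27 of 49 lower ones (55.1%), against 94.7% of all genes. For A498 it was 102 (80.3%) and 36 (73.5%), against 93.8%. For 769-P it was 88 (69.3%) and 26 (53.1%), against 92%.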

How the data were processed

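Total RNA was isolated with NucleoSpin RNA kits, made into TruSeq Stranded libraries and sequenced as read pairs on a NovaSeq instrument. The authors deposited raw counts per Ensembl gene for 16 samples. The submitters' processing notes name Trimmomatic 0.38, STAR 2.5.2b and build GRCh37. The counting tool, annotation release and use of strand are not given in the sources used here. The header is shifted by 1 column and was read so. Of 57773 gene IDs, 55538 matched GRCh37 annotation.

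Counts were scaled with TMM factors in edgeR 4.0.16 (R 4.3.3), and log2 CPM used a prior count of 2. Genes with at least 60 counts over all samples were tested, as in the study, and a mean of 1 CPM over the 5 786-O samples was required for the description. The range came from the 4 other 786-O samples. The edgeR quasi-likelihood F-test with Benjamini-Hochberg adjustment was used for the 3 comparisons that leave 786-O sgKDM5C 4 out, with calls at an adjusted p under 0.05. Named genes were the 15 protein-coding members per direction farthest beyond the range with a mean of at least 5 CPM, up to 4 members per direction of each gene list, KDM5C, KDM5D, and the 2 genes on either side of the limit per direction. The members, lists and functional groups were chosen with earlier results of these data known. Alternatives were RLE factors, DESeq2 1.42.0, other prior counts, floors, filters and distances, removal of the GC trend, and leaving out samples or lines. Cell cycle lists came from Seurat 5.3.0. Each fit was tested on simulated data. Each guide was 1 infected population per line, sequenced once, so p-values measure the spread between these samples.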

Additional observations from a re-analysis of the deposited data

Results flagged for a closer look

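Of 67 named genes, ANKRD1 moved in opposite ways in different lines. In 786-O the log2 difference of sgKDM5C 4 from sgCtrl was -2.51, with 2.56 CPM against 15 CPM, while that of sgKDM5C 5 was -0.03, with 14.6 CPM. In CAKI-2, A498 and 769-P the 6 sgKDM5C samples of both guides lay 0.3 to 0.63 above sgCtrl. The difference between the lines rests on 1 sample in 786-O and was not tested.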

How the results depend on the processing

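The count of 176 genes beyond the range became 408 (293 higher, 115 lower) without a floor on the mean level, 76 (55 and 21) with a floor of 5 CPM, 551 (363 and 188) at 1.5-fold and 18 (10 and 8) at 4-fold, as fewer or more genes could pass. Leaving out each of the 4 other samples gave 193 to 247. RLE factors, other prior counts and removal of the GC trend gave 165 to 182. The median of the collagens was reversed, from -0.14 to 0.0085, with the GC trend removed, and 195 of the other values of lists and chromosomes moved by less than the spread between samples. Another 14 moved by more without changing sign, all under another floor or with the GC trend removed, as did 20 distances of named genes under all alternatives.

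The call counts of the tests moved more. Guide 4 against guide 5, with 1 call, gave 0 with DESeq2, 53 with all genes of at least 1 count, 0 without CAKI-2, and 3 without A498 or 769-P. Guide 4 against sgCtrl, with 12 calls, gave 33 with DESeq2, 256 with at least 1 count, 25 without CAKI-2 and 1 without A498. Guide 5 against the 3 other 786-O samples, with 7 calls, gave 75 with DESeq2 and 243 with at least 1 count. The cause was not tested. Leaving out each of the 3 others gave 13 to 23, with 13 without sgCtrl, 23 without sgKDM5D 2 and 17 without sgKDM5D 4. Without the replicate block of cell line, guide 4 against guide 5 and against sgCtrl both had 0 calls. With the guide number as a replicate block, guide 5 in 786-O had 1 call. The deviations of the samples that share guide number 4 within a line had an r across genes of -0.069 in 786-O and 0.007 in CAKI-2. Each value rests on a single pair of samples, and whether such samples share anything besides a number was not tested.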
